A study of Mus musculus with 4 samples.

Results

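The abundance of 10 heat shock protein genes was followed in single ascites cells of mice with peritoneal ovarian cancer. The genes were Hspa1a, Hspa1b, Hsp90aa1, Hsp90ab1, Dnajb1, Hspb1, Hsph1, Hspe1, Hspd1 and Hspa8. They were chosen by name as the inducible and constitutive cytosolic chaperones plus the mitochondrial chaperonin pair, and they make up 10 of the 29835 genes listed across the 4 libraries. All 10 were listed in each library. C57BL/6 mice had received ID8-Trp53-/- cells into the peritoneal cavity. These cells are one mouse line derived from ovarian surface epithelium in which the tumor suppressor gene Trp53 was deleted, so tumor cells of all groups lack Trp53. Treatment began after 7 days of engraftment, was repeated 2 times a week and lasted until ascites reached about 3 mL. Control mice were given DMSO, the solvent, and an IgG2a isotype antibody. The BTYNB group received BTYNB, a small-molecule inhibitor of the RNA-binding protein IGF2BP1, at 50 mg/kg with the isotype antibody. The anti-PD-1 group received DMSO and the antibody RMP1-14 at 100 ng per dose, and the combination group received both agents. The doses are those of the sample labels, and the study's methods state other doses for both agents. Cells of the animals within a group were pooled into 1 library, so no spread between animals could be measured, no test across samples was possible, and the intervals given are 95% exact intervals that cover counting error only.

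Heat shock proteins are chaperones that bind unfolded or unfinished proteins and keep them from aggregating. Under heat, toxic protein load or oxidative stress the transcription factor HSF1 binds repeated GAA and TTC units in the promoters of their genes and raises transcription within minutes, with the HSP70 genes Hspa1a and Hspa1b among those that respond most. Other members, such as Hspa8 and Hsp90ab1, are made at high levels in unstressed cells, and tumor cells are known for high chaperone expression.

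The files listed 7858 cells for the control group, 19247 for BTYNB, 12163 for anti-PD-1 and 7074 for the combination, with 78603888 to 114600397 unique molecular identifiers (UMIs, each standing for 1 captured RNA molecule) per library, of which 7834, 18283, 12019 and 7042 cells were kept. Each pair of libraries shared at most 4 cell numbers, and none of the shared numbers had identical counts. Cells were assigned by UMIs per cell. Tumor-gate cells had at least 5 UMIs of Krt7, Krt8, Krt18, Krt19 and Wt1 together and no UMI of Ptprc, the pan-leukocyte marker. Myeloid-gate cells had at least 3 UMIs of Lyz2 and Csf1r with at most 2 keratin UMIs. The tumor gate held 7114, 3606, 10923 and 4369 cells in the control, BTYNB, anti-PD-1 and combination libraries, at a median of 9783, 15221, 7160 and 11503 UMIs per cell. The myeloid gate held 292, 3134, 384 and 1258 cells. Tumor markers that the gate did not use summed to 572 to 794 CPM (UMIs of a gene per 1000000 UMIs of the gate) in the tumor gate, carried by Upk3b, Msln and Muc16, while Epcam was nearly absent at 0.0800 to 0.230 CPM. Upk3b, Msln and Muc16 are also mesothelial genes, so they do not set tumor cells apart from host mesothelial cells in the gate. The part of host mesothelial cells was not tested. The 8 unused myeloid markers summed to 4505 to 4994 CPM in the myeloid gate and 16.7 to 37.0 CPM in the tumor gate.

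Promoter letters are shown first for the genes on which the results turn, the HSP70 pair Hspa1a and Hspa1b, and for 3 further members whose printed stretch holds a match, Hspb1 and Hsph1 as companions of Hspa1b in single cells and Hspe1 for its run of units. RefSeq windows on GRCm38.p6 were at hand for 7 of the 10 members, each spanning 250 bases before and 50 bases after a transcription start. The expression files are labeled GRCm39, and no coordinate was carried between builds. The motifs searched were the two-unit forms GAANNTTC and TTCNNGAA and the three-unit forms made by extending either of them by 1 more alternating unit after 2 further bases. Both two-unit forms read the same on both strands, the three-unit forms are reverse complements of each other, and a three-unit match contains 2 overlapping two-unit matches. A two-unit match was present in 15.1% of 32851 windows and a three-unit match in 0.603%. The 250 bases before the start are printed 5′ to 3′ on the strand of the gene, with the GAA and TTC units of the matches in capitals.
Hspa1a, chr17:34972157-34972406, minus strand: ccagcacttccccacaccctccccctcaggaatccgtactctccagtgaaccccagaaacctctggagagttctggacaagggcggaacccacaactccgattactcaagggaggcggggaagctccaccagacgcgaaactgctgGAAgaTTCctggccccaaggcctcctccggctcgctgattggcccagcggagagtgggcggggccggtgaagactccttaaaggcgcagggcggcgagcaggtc
Hspa1b, chr17:34959239-34959488, minus strand: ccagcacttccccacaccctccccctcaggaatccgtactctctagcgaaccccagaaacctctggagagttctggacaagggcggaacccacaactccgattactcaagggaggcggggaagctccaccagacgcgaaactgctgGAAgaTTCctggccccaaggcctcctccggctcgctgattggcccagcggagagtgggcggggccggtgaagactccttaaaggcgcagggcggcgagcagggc
Hspb1, chr5:135887669-135887918, plus strand: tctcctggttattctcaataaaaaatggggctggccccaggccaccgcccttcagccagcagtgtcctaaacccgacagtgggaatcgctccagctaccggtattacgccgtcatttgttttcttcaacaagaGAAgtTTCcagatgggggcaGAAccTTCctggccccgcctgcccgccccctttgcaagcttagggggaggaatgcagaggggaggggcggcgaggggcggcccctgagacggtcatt
Hsph1, chr5:149636337-149636586, minus strand: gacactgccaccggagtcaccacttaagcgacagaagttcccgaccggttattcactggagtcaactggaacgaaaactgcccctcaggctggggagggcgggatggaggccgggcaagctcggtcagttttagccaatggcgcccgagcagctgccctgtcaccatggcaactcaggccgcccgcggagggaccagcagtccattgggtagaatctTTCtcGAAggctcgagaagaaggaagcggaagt
Hspe1, chr1:55087898-55088147, plus strand: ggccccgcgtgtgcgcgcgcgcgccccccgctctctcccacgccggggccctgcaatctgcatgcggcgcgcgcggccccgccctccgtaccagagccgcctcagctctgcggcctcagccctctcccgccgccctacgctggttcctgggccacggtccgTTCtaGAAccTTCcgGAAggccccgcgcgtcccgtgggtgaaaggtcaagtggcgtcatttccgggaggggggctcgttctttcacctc

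The Hspa1a and Hspa1b stretches were identical at 247 of 250 positions (98.8%), and differed at 207, 204 and 2 bases before the start. Both carried 1 two-unit match, with its first base at position -104 relative to the start. Hspb1 carried 2 two-unit matches, at -117 and -97. Hsph1 carried 1 match at -33 and a three-unit match from position 37 after the start, beyond the printed stretch. Hspe1 carried a run of 4 alternating units from -89, and the same letters lay in a window of the divergently transcribed neighbor Hspd1, whose windows overlap those of Hspe1. Neither window of Dnajb1 held a match. Matches describe letters only. Since Hspa1a and Hspa1b are near-identical copies, reads may have been split between them or left out in a way the deposited counts do not show, and their separate values are uncertain to that extent.

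First, the members were compared between treatments in tumor-gate cells. Hspa1b was the one member past 1.5-fold in every contrast. Its level was 8.08 CPM (7.45 to 8.75) in the control library, 21.0 CPM (19.8 to 22.2) with BTYNB, 29.1 CPM (28.0 to 30.3) with anti-PD-1 and 10.7 CPM (9.86 to 11.6) with the combination. Both single treatments were high, the control and the combination were low, and none of the 4 counting intervals overlapped. These intervals treat each UMI as independent, although few cells held many of the Hspa1b UMIs, as given below. They are thus too narrow for the spread between cells. On the log2 scale of CPM plus 1, used for all ratios below, Hspa1b was higher by 1.27 (1.14 to 1.41) in BTYNB than in control. It was higher by 1.73 in anti-PD-1 than in control. It was lower in the combination than in either single treatment, with a ratio of -1.36 (-1.48 to -1.24) against anti-PD-1 alone and of -0.91 (-1.04 to -0.78) against BTYNB alone.

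Genes with a mean of at least 10 CPM over the 4 libraries, 8650 genes in the tumor gate, were compared at the same limit. Of these, 2.79% were higher and 2.61% lower by at least 1.5-fold in BTYNB than in control, 3.86% higher and 2.49% lower in anti-PD-1 than in control, 3.19% higher and 4.08% lower in the combination than in anti-PD-1, and 0.15% higher and 0.15% lower in the combination than in BTYNB. For anti-PD-1 against control 60.8% of the calls were higher, and 74.95% with median-of-ratios scaling. Of the 10 members, 9 reached the minimum and 1 of the 9, Hspa1b, passed the fold each time. Hspa1a did not reach the minimum. Hspa1b, at 8.08 CPM in control and 10.7 CPM in the combination, reached it through its levels in the single treatments, where it was high. The median log2 ratio of the 9 members was 0.11, 0.04, -0.01 and -0.17 in the order of the contrasts just given, beside medians of -0.01, -0.08, 0.04 and -0.03 over all genes compared. The treatment contrasts share libraries and are not independent of each other.

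**Figure D1:**
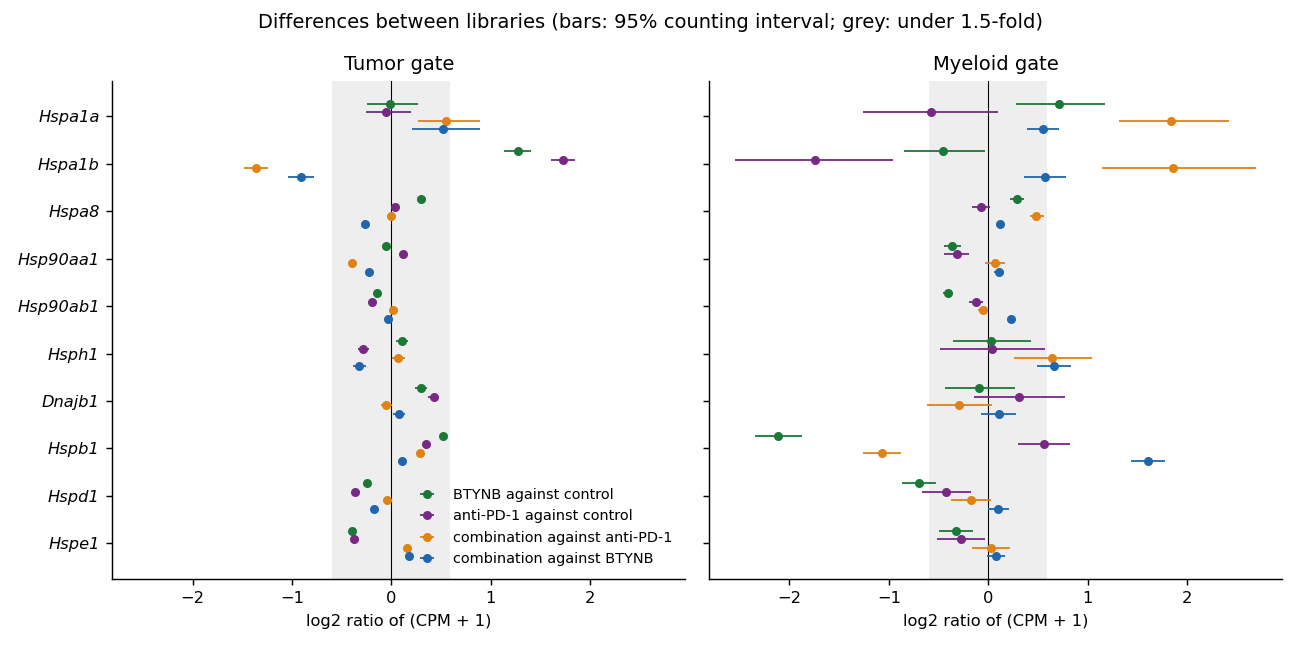
Log2 ratios of CPM plus 1 for the 10 members (rows) in the 4 treatment contrasts (colors) in the tumor gate (left) and the myeloid gate (right); bars are 95% counting intervals and the grey band marks ratios under 1.5-fold. In the tumor gate only the Hspa1b points lie outside the band, from -1.36 to 1.73.

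The other inducible members moved less in the tumor gate. Hspb1, the small heat shock protein HSP27, stood at 650 CPM in control, 936 with BTYNB, 831 with anti-PD-1 and 1012 with the combination. It was lowest in control and highest in the combination, a 1.56-fold range, and in the 4 contrasts its largest ratio was 0.53, for BTYNB against control, inside 1.5-fold. Dnajb1, an HSP40 that hands substrates to HSP70, stood at 62.2, 76.7, 84.0 and 81.1 CPM in the same order. All 3 treated libraries exceeded the control, by log2 ratios of at most 0.43. Hsph1, the HSP110 that exchanges nucleotide on HSP70, stood at 64.7, 70.0, 53.1 and 55.9 CPM. It did not follow Hspa1b, since anti-PD-1 gave its lowest value. Hsp90aa1, the inducible cytosolic HSP90, ranged from 843 CPM in the combination to 1107 CPM with anti-PD-1.

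The constitutive cytosolic members spanned a narrow range in tumor-gate cells. Hspa8, the HSC70 of unstressed cells, stood at 1110 CPM in control, 1367 with BTYNB, 1143 with anti-PD-1 and 1139 with the combination, and the last 2 had overlapping intervals. Hsp90ab1, the constitutive HSP90, ranged from 4836 CPM with anti-PD-1 to 5512 CPM in control, a 1.14-fold range. The mitochondrial pair was highest in control. Hspe1, the co-chaperonin HSP10, stood at 506 CPM in control and 385 to 436 CPM in the treated libraries, and its partner Hspd1, HSP60, at 434 CPM in control and 326 to 367 CPM in the treated libraries. Together the 10 members took 0.937%, 0.921%, 0.881% and 0.880% of all tumor-gate UMIs in control, BTYNB, anti-PD-1 and combination. Apart from the share of Hspa1a in the HSP70 pair below, levels are not compared between genes.

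**Figure D2:**
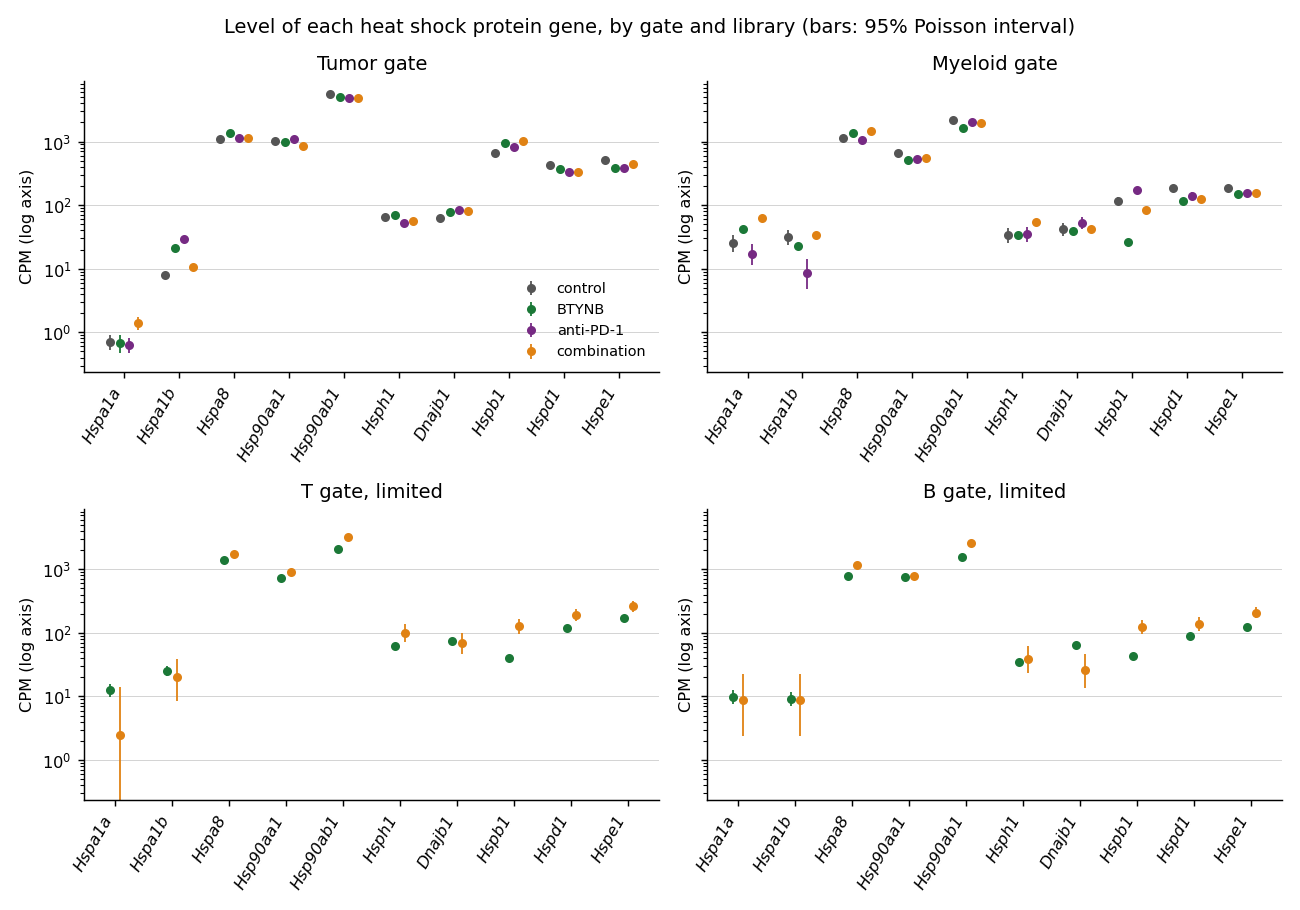
CPM of the 10 members (log axis) in the tumor and myeloid gates of the 4 libraries and in the T and B gates of BTYNB and the combination after removal of cells with tumor or myeloid marker UMIs; bars are 95% exact Poisson intervals. In the tumor and myeloid gates Hspa1b and Hspa1a differ most between libraries, joined by Hspb1 in the myeloid gate. Hspa8 stays between 1062 and 1488 CPM in the tumor and myeloid gates.

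Next, the tumor-gate cells that carried Hspa1b were counted. Hspa1b UMIs were found in 212 of 7114 cells in control, 229 of 3606 with BTYNB, 538 of 10923 with anti-PD-1 and 278 of 4369 with the combination. Cells with at least 10 Hspa1b UMIs numbered 5, 24, 59 and 3, or 0.0703% (0.0228 to 0.164), 0.666% (0.427 to 0.989), 0.540% (0.411 to 0.696) and 0.0687% (0.0142 to 0.2005) of the gate. These few cells held 56.4%, 68.5%, 66.5% and 23.1% of all Hspa1b UMIs in the gate. With every cell thinned to 3000 UMIs, which left out 492 shallower BTYNB cells, at least 3 Hspa1b UMIs were seen in 0.0843% of cells in control, 0.514% with BTYNB, 0.668% with anti-PD-1 and 0.137% with the combination. The 2 single treatments had the higher shares on both counts.

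Part of the difference between treatments rested on these cells. Without them, a choice made after seeing the data, the log2 ratio of Hspa1b was 0.77 for BTYNB against control. It was 1.26 for anti-PD-1 against control. Both ratios were still past 1.5-fold, but Hspa1b then missed the minimum mean of 10 CPM, so neither was a call. The ratio was -0.23 for the combination against anti-PD-1, inside the fold, and 0.26 for the combination against BTYNB, where the sign turned. Without the UMIs of those cells the level was 3.52 CPM in control, 6.62 with BTYNB, 9.75 with anti-PD-1 and 8.22 with the combination. The remaining cells of all 3 treated libraries thus lay above those of the control.

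**Figure D3:**
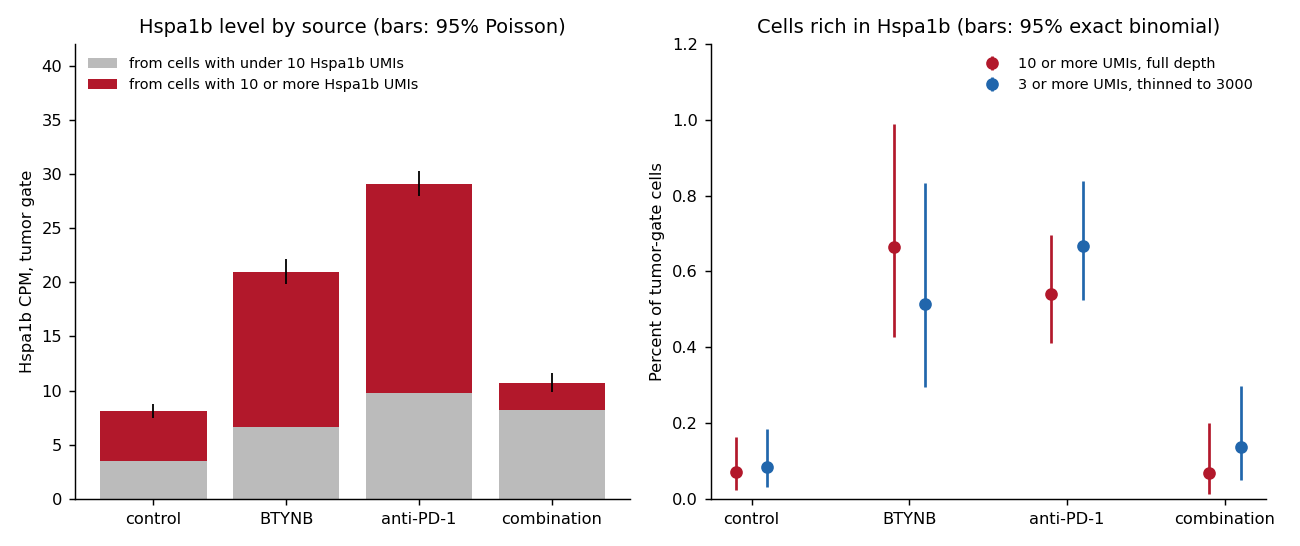
Left, Hspa1b CPM in the tumor gate of each library, split into UMIs from cells with at least 10 Hspa1b UMIs and UMIs from all other cells; right, percent of tumor-gate cells with at least 10 Hspa1b UMIs at full depth (red) or at least 3 after thinning to 3000 UMIs (blue), with 95% exact binomial intervals. Bars on the left are 95% Poisson intervals. The rich cells carry most of the UMIs in control, BTYNB and anti-PD-1 but 23.1% in the combination.

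Other chaperone genes were high in the Hspa1b-rich tumor-gate cells. The cells were picked on Hspa1b, so its own level in them is fixed by that choice, and the other values are descriptions of few cells from 1 library each. Dnajb1 stood at 2648 CPM in the rich cells and 60.9 CPM in the other cells of the control, 771 against 68.5 with BTYNB, 2608 against 68.8 with anti-PD-1 and 671 against 80.6 with the combination. Hsph1 stood at 1538 against 63.9, 512 against 64.7, 905 against 48.0 and 1968 against 54.3 CPM in the same order. Hspb1 stood at 11725 against 644, 3751 against 903, 5418 against 803 and 9145 against 1006 CPM. Thus all 3 were higher in the rich cells of every library, from 4.16-fold for Hspb1 with BTYNB to 43.5-fold for Dnajb1 in control. Hspa1a was 18.5- to 1386-fold higher, from at most 78 UMIs in a whole gate, and its reads may be shared with Hspa1b. Bag3, the co-chaperone that links HSP70 to autophagy and no member itself, was 17.0-, 3.92-, 10.6- and 3.43-fold higher.

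The constitutive and mitochondrial members differed less between rich and other cells. Hsp90ab1 was 2.11-, 1.24-, 1.64- and 1.49-fold and Hspa8 4.32-, 1.39-, 3.12- and 2.48-fold higher in the rich cells of control, BTYNB, anti-PD-1 and combination. Hsp90aa1 was 2.96- to 7.38-fold higher. Hspe1 was 1.75- to 3.45-fold and Hspd1 1.68- to 3.71-fold higher. The order of folds in anti-PD-1, the library with most rich cells, ran from Dnajb1 over Hsph1, Hspb1, Hsp90aa1, Hspd1, Hspa8 and Hspe1 to Hsp90ab1. The immediate early gene Fos, which responds to many other stresses and to tissue handling, was 0.823- to 1.10-fold in the rich cells. Jun was 0.919- to 2.09-fold, highest in the combination, and Atf3 1.03- to 2.09-fold, highest in anti-PD-1. Median UMIs per rich cell were 6949, 26873.5, 8243 and 13171, against 9783, 15182, 7155.5 and 11503 in the other cells, and the part of depth in these folds was not tested.

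**Figure D4:**
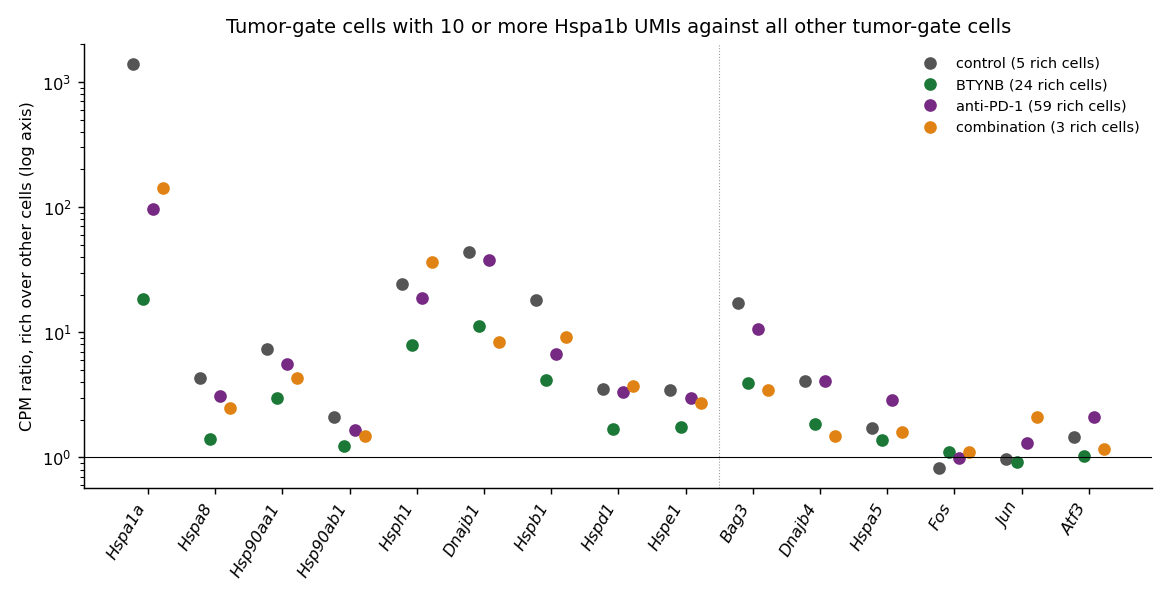
Fold of CPM in tumor-gate cells with at least 10 Hspa1b UMIs over all other tumor-gate cells (log axis) for the members other than Hspa1b and, right of the dotted line, 6 comparison genes, by library. Of the members below Hspa1a, which rests on few UMIs, Dnajb1, Hsph1 and Hspb1 lie highest in every library, Bag3 lies above Hspb1 in anti-PD-1, and Fos lies near 1.

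The same genes accompanied Hspa1b when cells were split by any Hspa1b UMI at even depth. The cells with an Hspa1b UMI include the Hspa1b-rich ones, so these folds are not separate from those above. In tumor-gate cells thinned to 3000 UMIs, mean Dnajb1 UMIs were 4.49-, 6.36-, 12.4- and 3.03-fold higher in cells with an Hspa1b UMI than in cells without one, in the order control, BTYNB, anti-PD-1 and combination. For Hsph1 the folds were 4.54, 7.35, 6.76 and 3.08. For Hspb1 they were 3.46, 2.71, 2.80 and 1.97, whereas for Hsp90ab1 they were 1.01, 1.06, 1.18 and 0.981. Hspa1a, whose reads may be shared with Hspa1b, had folds of 159, 17.8, 41.2 and 25.2 from very few UMIs. Of the other members, Dnajb1 and Hsph1 had the largest folds in each library, and Hsp90ab1 was nearly even between both kinds of cells. Within anti-PD-1, Cd24a-high cells (at least 3 UMIs of Cd24a) made up 37.3% of the 59 rich cells and 18.5% of the gate. In BTYNB they made up 20.8% of the 24 rich cells and 4.10% of the gate. In control and combination 0 of the 5 and 0 of the 3 rich cells were Cd24a-high. Cd24a-high cells had a median of 9323.5 UMIs against 6685 in other tumor-gate cells of anti-PD-1, and 28503 against 14678 in BTYNB. Both Cd24a-high and rich cells are set by UMI cutoffs, and the part of depth in their overlap was not tested.

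The HSP70 pair was then compared between gates. Hspa1a stood at 0.694 CPM (0.518 to 0.909) in control, 0.674 with BTYNB, 0.631 with anti-PD-1 and 1.40 (1.11 to 1.74) with the combination in the tumor gate, from 39 to 78 UMIs. In the myeloid gate it stood at 25.6, 42.6, 16.8 and 62.8 CPM. Hspa1a was thus far higher in myeloid-gate cells of every library, by log2 ratios of 3.97, 4.70, 3.45 and 4.74. Hspa1b did not follow this pattern, with log2 ratios of myeloid over tumor gate of 1.84, 0.11, -1.63 and 1.59. Hspa1a made up 7.90% (5.96 to 10.2) of the UMIs of the pair in control tumor-gate cells, 3.11% (2.22 to 4.23) with BTYNB, 2.12% (1.59 to 2.77) with anti-PD-1 and 11.6% (9.24 to 14.2) with the combination. In the myeloid gate the share was 44.9% (34.8 to 55.3), 65.2% (62.3 to 68.0), 65.9% (50.1 to 79.5) and 64.7% (61.5 to 67.7). The intervals of the 2 gates did not overlap in any library. The part of read assignment between the near-identical copies in this difference was not tested.

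**Figure D5:**
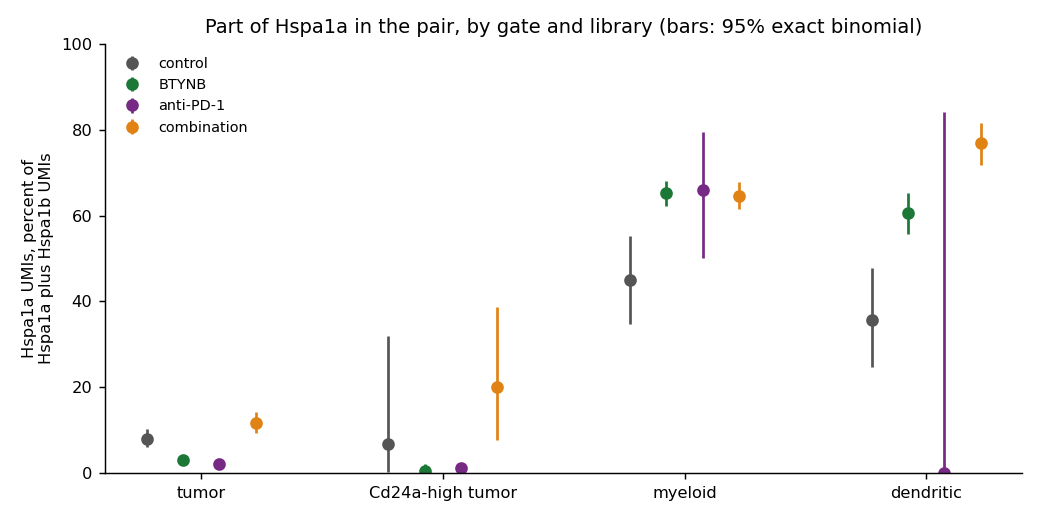
Hspa1a as a percent of Hspa1a plus Hspa1b UMIs in the tumor gate, its Cd24a-high cells, the myeloid gate and dendritic cells of each library, with 95% exact binomial intervals. The tumor-gate points lie between 2.12% and 11.6%, and the myeloid-gate points between 44.9% and 65.9%; the anti-PD-1 dendritic point rests on 2 UMIs.

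In the myeloid gate, 8362 genes reached the minimum, as did all 10 members. For BTYNB against control, 10% of genes were higher and 15.9% lower by at least 1.5-fold. Hspa1a was higher, with a log2 ratio of 0.71 (0.28 to 1.18), and Hspb1 and Hspd1 were lower, with -2.11 (-2.35 to -1.87) and -0.70 (-0.87 to -0.52). Hspb1 stood at 118 CPM in control and 26.4 with BTYNB, and Hspd1 at 187 and 115 CPM. The member median was -0.34 beside -0.05 over all genes. The Hspa1a ratio was 0.46 among cells above a common floor of 5115 UMIs and 0.56 with a pseudocount of 10 CPM, both inside the fold. The Hspd1 ratio was -0.52, inside the fold, after subtraction of tumor RNA by Upk3b, Msln and Muc16. Neutrophil markers summed to 1866 CPM in the BTYNB myeloid gate and 409 CPM in control, and without cells rich in S100a8 and S100a9 the Hspa1a ratio was 0.73.

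For anti-PD-1 against control, 6.09% of genes were higher and 8.05% lower, and 1 member, Hspa1b, was lower at 8.70 CPM against 31.4 CPM, a log2 ratio of -1.74 (-2.54 to -0.96). These levels came from 15 and 54 UMIs. Only 2 of the 292 control cells had at least 10 UMIs of Hspa1a or Hspa1b and none of the 384 anti-PD-1 cells did, and without such cells the ratio was -0.18, inside the fold. The member median was -0.20 beside -0.06 over all genes, and 43.1% of all calls were higher, or 54.5% with median-of-ratios scaling.

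For the combination against anti-PD-1, 8.47% of genes were higher and 9.87% lower. Hspa1a, Hspa1b and Hsph1 were higher, with log2 ratios of 1.84 (1.31 to 2.42), 1.86 (1.15 to 2.70) and 0.64 (0.26 to 1.05), and Hspb1 was lower, with -1.07 (-1.26 to -0.87). Hspa1b stood at 34.3 CPM and Hsph1 at 54.9 CPM in the combination, against 8.70 and 34.8 CPM. Among cells above the common floor the 4 ratios were 2.92, 0.94, 1.26 and -1.75, in the order given. The member median was 0.04 beside -0.01. For the combination against BTYNB, 7.2% of genes were higher and 3.41% lower, and Hspb1 and Hsph1 were higher, with 1.61 (1.44 to 1.78) and 0.66 (0.49 to 0.83). All 10 members lay above 0 in that contrast, with a median of 0.18 beside -0.01 over all genes. The intervals of Dnajb1, Hspe1 and Hspd1 included 0. Above the common floor Hspd1 was at -0.11 and Hspa8 at -0.03. After subtraction of tumor RNA by Upk3b, Msln and Muc16, Hspe1 was at -0.09. Hspe1, Hspd1 and Hspa8 kept their sign under 10, 11 and 12 of 13 alternatives.

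The Hsph1 calls rested in part on few myeloid cells. In the combination 11 of 1258 cells had at least 10 UMIs of Hspa1a or Hspa1b, and in BTYNB 10 of 3134. In those cells Hsph1 stood at 1665 CPM against 42.5 in the other cells of the combination, and at 614 against 32.6 CPM in BTYNB. Dnajb1 stood at 149 against 41.5 and 515 against 37.8 CPM. Hsph1 and Dnajb1 were thus high in HSP70-rich myeloid cells too. Without the rich cells the Hsph1 ratio was 0.28 for the combination against anti-PD-1 and 0.37 for the combination against BTYNB, both inside the fold, whereas Hspa1a against anti-PD-1 remained past it.

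Hspb1 in the myeloid gate was set beside tumor RNA in that gate, and the part played by that RNA was not tested. It stood at 118 CPM in control, 26.4 with BTYNB, 174 with anti-PD-1 and 82.5 with the combination, or 18.1%, 2.83%, 20.9% and 8.15% of the tumor-gate level of the same library. Upk3b, Msln and Muc16, mesothelial genes found in the tumor gate and used by neither gate, stood at 8.72%, 2.98%, 15.8% and 6.51% of their tumor-gate level. The libraries stand in the same order by both measures. Krt8 and Krt18, which both gates limit by rule, stood at 5.67%, 2.31%, 6.52% and 4.47%. The tumor-gate Hspb1 level times the share of Upk3b, Msln and Muc16 came to 56.6, 27.9, 131 and 65.9 CPM, above the measured value in BTYNB and below it in the other libraries. With this amount subtracted, the Hspb1 ratio was -0.50 in place of 0.56 for anti-PD-1 against control, where the sign turned, and -1.31 for the combination against anti-PD-1. It was -5.95 for BTYNB against control and 4.14 for the combination against BTYNB, but there the BTYNB level was set to 0, so both values depend on the pseudocount. By the keratins the ratios were 0.56, -1.66, -3.81 and 2.72. Hspa1a, at 0.631 to 1.40 CPM in the tumor gate, was below its myeloid level in each library.

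Between the tumor and myeloid gates, most members were lower in myeloid cells. Hsp90ab1 differed by -1.59 to -1.26 on the log2 scale over the 4 libraries, Hspe1 by -1.48 to -1.34, Hspd1 by -1.67 to -1.21, Hsp90aa1 by -1.06 to -0.61 and Dnajb1 by -0.95 to -0.56. Hspb1 differed most, by -5.09 to -2.25. Hspa8 did not differ in this way, with ratios of 0.01, -0.00, -0.11 and 0.39. With each cell thinned to 3000 UMIs the 10 members together gave a median of 25 to 27 UMIs per tumor-gate cell and 11 to 13 UMIs per myeloid-gate cell.

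T-gate cells (at least 2 UMIs of Cd3d, Cd3e and Cd3g) and B-gate cells (at least 3 UMIs of Cd79a and Cd79b) were numerous only with BTYNB, at 2481 and 3475 cells, followed by 158 and 286 cells in the combination and 22 to 39 cells in control and anti-PD-1. These gates held tumor RNA. Krt8 and Krt18 stood at 19.4% of the tumor-gate level in BTYNB T cells and 42.04% in combination T cells, and at 46.8% and 70.8% in B cells. Gates limited after seeing this to cells with at most 2 keratin UMIs and fewer than 3 UMIs of Lyz2 and Csf1r kept 2291 BTYNB and 59 combination T cells, and 3105 and 72 B cells, at median depths of 2048 and 6459, and 1856 and 5911.5 UMIs. Control and anti-PD-1 kept 1 to 6 cells each, and their levels are not used. Upk3b still stood at 32.3 CPM in limited T cells of BTYNB and 49.6 CPM in those of the combination. In limited B cells it stood at 45.7 and 54.7 CPM, so the limited gates still held some tumor RNA.

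For the combination against BTYNB in the full T gate, 20.1% of 9117 genes were higher and 16.2% lower by at least 1.5-fold, and of the members Hspb1 was higher with 1.85 and Hspa1b lower with -0.98. In the limited gate Hspb1 was at 39.6 CPM with BTYNB and 127 CPM with the combination, with a log2 ratio of 1.65 (1.19 to 2.09). Hspa1b stood at 25.1 and 19.9 CPM there, with a ratio of -0.32 whose interval (-1.47 to 0.66) included 0. Hsp90ab1, Hsph1, Hspe1 and Hspd1 also passed the fold in the limited gate, with 0.61, 0.69, 0.60 and 0.65, beside 22.7% of 8634 genes that were higher and 19.2% that were lower there. In the full B gate, 11.4% of 9198 genes were higher and 19.2% lower, and Hspb1 and Hspe1 were higher, both with 0.69. In the limited B gate Hspb1, Hspe1, Hsp90ab1 and Hspd1 were higher, with 1.504, 0.74, 0.71 and 0.66, and Dnajb1 lower with -1.25 (-2.17 to -0.46), at 26.3 CPM against 64.0 CPM, beside 19% of 8608 genes that were higher and 19.5% that were lower. Among cells of the full gates above the common floor of 5115 UMIs, Hspb1 was at 0.64 and Hspa1b turned to 0.76 in the T gate, and both B-gate calls were lost, with -0.18 for Hspb1 and 0.15 for Hspe1. After subtraction of tumor RNA by the keratins the B-gate ratios were 0.55 and 0.44, and by Upk3b, Msln and Muc16 -0.36 and 0.16.

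Lymphocytes of the BTYNB library, the one with enough cells, were set beside its other cells in the limited gates. Hspa8 stood at 1374 CPM in T, 1366 in myeloid, 1367 in tumor and 784 in B cells, so that only B cells were lower. Hsp90ab1 stood at 2106 CPM in T and 1553 CPM in B cells against 5006 CPM in tumor cells. Hspa1a stood at 12.5 CPM in T and 9.76 CPM in B cells, between the tumor gate at 0.674 CPM and the myeloid gate at 42.6 CPM. Dnajb1 and Hsph1 were higher in T than in myeloid cells, by 0.91 and 0.81.

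Finally, 6 lists of related genes were examined in the tumor gate, each beside the same background shares as the members. Not every call in these lists is named. Of 21 other cytosolic heat shock genes compared, the small heat shock protein gene Hspb6 was lower in BTYNB than in control, with -0.87, beside 2.61% of all genes. None of the 21 passed the fold in the other contrasts. Their medians were -0.01, -0.17, 0.09 and -0.08 over the 4 contrasts. Of 14 co-chaperones only Ahsa1, an HSP90 activator, passed the fold, with -0.61 for anti-PD-1 against control, beside 2.49% of all genes that were lower. None of 8 subunits of the cytosolic chaperonin and none of 6 mitochondrial chaperones passed it in any contrast, with medians of -0.26 to -0.11 and -0.28 to 0.01.

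The endoplasmic reticulum chaperones and the immediate early genes held more calls. Of 18 endoplasmic reticulum genes, Herpud1, a factor in the degradation of misfolded proteins, was at 134 CPM with anti-PD-1, 67.0 CPM in control and 72.7 CPM in the combination. Creld2, Hspa5, Hyou1 and Dnajc3 were lower in the combination than in BTYNB, with -0.80, -0.72, -0.70 and -0.61, beside 0.15% of all genes. Hspa5, the chaperone BiP, stood at 1943 CPM with BTYNB and 1183 CPM with the combination. Of 14 immediate early genes, 7 were higher in BTYNB than in control, beside 2.79% of all genes. They were led by Jun with 0.92, Atf3 with 0.91, Fosb with 0.68 and Jund with 0.65. In the combination 4 were higher than in anti-PD-1, beside 3.19% of all genes. These were Atf3 with 1.17, Jun with 0.78, Btg2 with 0.64 and Dusp1 with 0.60. The list summed to 9053 CPM in control, 12918 with BTYNB, 8743 with anti-PD-1 and 11906 with the combination. It was thus high in the 2 libraries that received BTYNB, whereas Hspa1b was high with the 2 single treatments. In the myeloid gate, 5 of 18 other cytosolic heat shock genes were lower in BTYNB than in control and none was higher, beside the 15.9% of genes that were lower, and 3 of 14 immediate early genes were higher in the combination than in BTYNB, beside 7.2%.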

How the data were processed

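Ascites cells were captured on the BD Rhapsody system with a whole-transcriptome polyA protocol, and the authors made the deposited matrices, which hold raw UMI counts per gene and cell for 1 library per treatment group, with GRCm39 named in the submitters' processing notes. Erythrocytes were depleted and cells were filtered and cryopreserved before capture. Cells with fewer than 200 genes (331, all BTYNB) or over 33% mitochondrial UMIs (24, 956, 144 and 32 in control, BTYNB, anti-PD-1 and combination) were left out, and the shallowest kept cells had 869 (BTYNB) to 5115 UMIs (combination). UMIs were summed per library and gate and expressed as CPM with exact Poisson intervals. Log2 ratios used a pseudocount of 1 CPM, with intervals from the exact binomial share of the 2 counts. Genes with a mean of at least 10 CPM over the libraries of a gate were compared, and 1.5-fold (0.585 on the log2 scale) was the limit, without any test. A cell could fall into more than one gate, and no doublet caller was run. Doublets were treated through alternatives that kept cells of exactly one gate or dropped the 5% of cells with most UMIs. Thinning drew 3000 UMIs per cell without replacement. All 10 members were named by rule, and of each list some members past the fold, at most 4 per tumor contrast. One result from these lists is not reported here. The members, gates and lists were chosen with earlier results of these data known. Calculations used Python 3.11.15, numpy 2.4.6, scipy 1.17.1 and pandas 2.3.3, and the ratio code was tested on simulated data. Promoter letters came from RefSeq.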

Additional observations from a re-analysis of the deposited data

Results flagged for a closer look

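Hspa1b showed opposite differences for the same treatment step, and these differences between differences were not tested, since each rests on 1 library per group. In the tumor gate the BTYNB ratio was 1.27 without anti-PD-1 and -1.36 with it, a log2 gap of 2.64, and the anti-PD-1 ratio was 1.73 without BTYNB and -0.91 with it, the same gap of 2.64 by construction. Without the cells of at least 10 Hspa1b UMIs the tumor-gate ratios were 0.77, -0.23, 1.26 and 0.26. For anti-PD-1 against control, Hspa1b was higher in the tumor gate and lower in the myeloid gate, a gap of 3.47. The myeloid levels rest on 15 UMIs with anti-PD-1 and 54 UMIs in control. Without cells of at least 10 Hspa1a or Hspa1b UMIs that myeloid ratio was -0.18, inside the fold. For the combination against anti-PD-1 it was lower in the tumor gate and higher in the myeloid gate, a gap of -3.23.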

How the results depend on the processing

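No paired analysis was possible because each group is 1 library with no second replicate, and for the same reason no replicate could be left out. Precision was limited by counting error in small gates and by depth that differed between gates and libraries. Of the log2 ratios of single members, 915 stayed within the counting interval of the main value under an alternative, 321 moved outside it and 4 reversed. Only members past the fold could count as reversed. Sign turns of other members are among those that stayed or moved. The Hspa1b ratio in the tumor gate passed 1.5-fold under all 12 alternatives for BTYNB against control (0.77 to 1.36) and for anti-PD-1 against control (1.11 to 1.89). In the setting without Hspa1b-rich cells, which gave the 0.77, Hspa1b missed the minimum mean and was not called. Hspa1b reversed for the combination against BTYNB, to 0.26, without cells of at least 10 Hspa1b UMIs. In the T gate it reversed to 0.76 among cells above a common UMI floor. Hspb1 in the B gate reversed to -0.18 above that floor and to -0.36 after subtracting free RNA by Upk3b, Msln and Muc16. The subtraction by these genes, the removal of Hspa1b-rich, HSP70-rich or S100a8-rich cells and the limited T and B gates were chosen after seeing the data.

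The count of tumor-gate members past the fold, 1 in each contrast, became 0 without Hspa1b-rich cells and at a minimum of 50 CPM, because Hspa1b then missed the minimum mean, and 0 for the combination against BTYNB with a pseudocount of 10 CPM or at 2-fold. In the myeloid gate the count of 3 for BTYNB against control became 1 at 2-fold. The count of 1 for anti-PD-1 against control became 2 with median-of-ratios scaling, means over cells, cells of exactly one gate, without the top 5% of cells or at a mitochondrial limit of 15%, 3 above the common floor, 4 after the subtraction by Upk3b, Msln and Muc16 and 0 at 50 CPM. The counts for the combination became 1 of 4 against anti-PD-1 at 50 CPM, and 1 of 2 against BTYNB with a pseudocount of 10 CPM, at 50 CPM or at 2-fold. In the T gate the count of 2 became 6 with means over cells, 4 in exactly one gate, 5 without the top cells, after that subtraction or in the limited gate, and 1 above the floor, at 50 CPM or at 2-fold. In the B gate the count of 2 became 4 with means over cells, in exactly one gate, without the top cells or after that subtraction, 5 in the limited gate and 0 above the floor or at 2-fold. The member median for the combination against BTYNB moved in the myeloid gate from 0.18 to 0.10 above the floor and after that subtraction, in the T gate from 0.04 to -0.49 after that subtraction and 0.60 in the limited gate, and in the B gate from 0.26 to -0.17 above the floor, 0.78 without the top cells, -0.15 after subtraction by Krt8 and Krt18 and -0.74 after that by Upk3b, Msln and Muc16. The cause was not tested. Subtracting free RNA was the one scaling that moved the median log2 ratio of all genes by over 0.1, by -0.13 to 0.18 in the myeloid gate with Upk3b, Msln and Muc16, by -0.52 and -0.74 in the T gate and by -1.004 and -1.35 in the B gate with the keratins and with Upk3b, Msln and Muc16. The number of all tumor-gate genes past the fold, 26 to 629 over the contrasts, was 12 to 356 with a pseudocount of 10 CPM, 9 to 207 at 50 CPM, 79 to 1248 at 1 CPM, 97 to 1385 without a minimum and 5 to 162 at 2-fold. In the myeloid gate it was 887 to 2168, and 471 to 1425, 267 to 699, 1833 to 4527, 2169 to 6826 and 252 to 869 in the same order.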

Other observations

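Hspa1a and Hspa8 were compared with all genes over the 12 gate and library groups of at least 50 cells, by Pearson's r of log2(CPM + 1). The groups share libraries and cell types, so r is a description. The 5 non-members most like Hspa1a were Rap1gap2, Lilrb4a, Enox2, Mctp1 and Nlrp1b, with r of 0.985 to 0.982, whereas r between Hspa1a and its copy Hspa1b was 0.33. For Hspa8 they were Map2k3, Slc25a20, Tbc1d4, Arsb and Mapk6, with r of 0.82 to 0.75.

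Dendritic cells (at least 3 UMIs of Flt3, Xcr1, Clec9a and Cd209a, with few keratin, Cd3 and Cd79 UMIs) had 1699 to 1930 CPM of Hspa8 in control, BTYNB and the combination. Hspa1b stood at 209 CPM (153.6 to 278) in control dendritic cells, from 47 UMIs, against 24.1 CPM with BTYNB and 14.6 CPM with the combination. These levels came from 42 control, 989 BTYNB and 657 combination cells, and the control number is below the minimum for the groups compared above. The interval treats each UMI as independent. How the 47 UMIs were spread over the 42 control cells was not tested, so no treatment difference is read from these levels. Neutrophils of the BTYNB library had 562 CPM of Hspa8. In anti-PD-1 tumor-gate cells, Cd24a-high cells had 49.0 CPM of Hspa1b and 470 CPM of Hspb1.

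Within the control tumor gate, Hspe1 was at 376 CPM in the 25% of cells with fewest UMIs and 604 CPM in the 25% with most, and Hspb1 at 796 and 547 CPM.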
